A study of Mus musculus with 6 samples.

Results

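The 45 genes described here encode the machinery of the endoplasmic reticulum (ER) that brings proteins into the secretory pathway, folds them, removes the misfolded ones and signals when folding fails. They were chosen by symbol as a list of ER genes, and 44 of them were measured among 19937 genes. They were split by role into 6 stress sensors and transcription factors, 17 chaperones and oxidative folding factors, 12 genes of the translocon and of signal peptide processing, and 9 genes of ER-associated degradation. Sec61g was not measured, because its probe sets carry several gene symbols, and Ero1l is listed under its current symbol Ero1a. Affymetrix arrays were run on RNA of pDCs (plasmacytoid dendritic cells) from mouse spleen, collected as B220+ SiglecH+ cells per the labels. The groups were 3 wild-type samples (WT) and 3 samples from IRF8-deficient mice (KO), with replicate numbers 1 to 3 from the sample titles. The sources used here do not give strain, age, or the way Irf8 was inactivated (in which cells, and in which part of the gene). Whether samples of a group came from separate animals is unstated, so p-values here reflect only how far these samples spread, and that spread may be technical.

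As background, secretory proteins enter the ER through the SEC61 channel, lose their signal peptide and are folded by chaperones such as BiP and by protein disulfide isomerases. When unfolded proteins build up, the sensors IRE1, PERK and ATF6 start the unfolded protein response, which raises chaperone and degradation genes through the transcription factors XBP1, ATF4 and cleaved ATF6. Plasmacytoid dendritic cells secrete large amounts of type I interferon and are known for a well developed secretory pathway.

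Each value is a deposited log2 expression level of a probe set on an array. A difference is KO minus WT in log2 units, with the standard error (SE) of a limma fit over all 19937 genes, and a gene was called where its Benjamini-Hochberg adjusted p over all genes was at or under 0.05. An exact permutation test of 3 against 3 arrays cannot give a p below 0.10, so it cannot pass this threshold. The gene named in the genotype did not have a lower level in KO. Irf8, a transcription factor of dendritic cells, measured 10.21, 9.97 and 10.24 in WT replicates 1 to 3 and 10.15, 10.49 and 10.79 in KO replicates 1 to 3, which differ by 0.34 (limma adjusted p = 0.426, SE 0.18, exact permutation p = 0.30). Whether this probe set lies in the altered part of Irf8 was not examined, so its level does not check the genotype. Every direction below rests on the labels.

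Of 13 pDC markers 11 were measured, none with a mean over all 6 arrays below the 25th percentile of all gene levels (4.58). This cut does not test each group. Siglech and Ptprc, the gene of B220, are among the markers, and the cells were sorted on them. By limma 2 of the 11 fell in KO, the chemokine receptor gene Ccr9 and Pacsin1 (18.2%, and 4.38% over all genes). The summed linear signal of the 11 was lower in KO, from 33137.3 to 36495.7 in WT and from 31031.9 to 31648 in KO. Of the 11, 5 had all KO values below the WT range and 1 above it, where 11.7% and 8.71% of all genes did. The part of this lower signal in the ER results was not tested. Of 9 markers of conventional dendritic cells, all measured, 2 rose (Cd8a and Itgax) and 3 fell (Clec9a, Cd209a and Clec10a, with differences of -6.32, -3.73 and -2.62). This is 55.6% of them, and over all genes 4.38% were called. The summed linear signal of the 9 ran from 4353.1 to 5251.7 in WT and from 4377 to 5534.6 in KO, Xcr1 lay below the 25th percentile, and their part in the ER results was not tested. KO replicate 1 stood apart from the other KO samples. On the second principal component of all genes both arrays numbered 1 lay at 37.37 (KO) and 16.30 (WT), while the other 4 lay between -16.84 and -8.23. The summed linear signal of 9 neutrophil granule genes ran from 251.1 to 1456.3 in WT and from 585.7 to 16945 in KO, with KO replicate 1 at a median of 2.90 log2 units above the WT mean and the other KO replicates at 0.42 and 0.06. That of 13 cell cycle genes was higher in every KO array, from 2496.2 to 2505.4 in WT and from 3307.7 to 6363.4 in KO. Their median lay 2.11, 0.43 and 0.33 above the WT mean in KO replicates 1 to 3. All 13 differences were positive, and 1 gene, Mcm6, rose by limma. For 10 of the 13, all KO values lay above the WT range, where 8.71% of all genes did. Differences of genes given in full are also given without KO replicate 1 where that moved them by over 1.5 times or changed their sign. In RNA from whole sorted samples, a lower level in each cell and fewer cells that express the gene cannot be told apart.

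Few of the ER genes passed the test of a difference between the genotypes. Of the 44, 1 rose and 4 fell in KO by limma: Atf6, a sensor of unfolded proteins, rose, while the degradation factors Edem2 and Herpud1 and the folding factors Pdia5 and Creld2 fell. These 5 are 11.4% of the members, and over all genes 4.38% were called, 2.3% higher and 2.08% lower. The members were chosen with earlier results of these data known, so these shares are no independent comparison. The other 39 members passed in neither direction. An unadjusted p under 0.05 was found for 8 of the 44 members and for 3203 of all 19937 genes. The 95% interval of a member's difference, not adjusted for the number of genes, reached a median of 0.37 to either side. Differences beyond this size went uncalled too, such as -0.76 for Spcs2 and -0.66 for Ssr4. The differences of the 44 members ran from -1.0 for Edem2 to 0.93 for Atf6, with a median of -0.13. Over all genes the median was -0.04. Of the members 31 had a negative difference, 70.5%, where over all genes it was 58.2%. In a fit of only the genes above the median level, 6 of the 44 members and 8.7% of those genes were called. Of those genes 50.6% had a negative difference.

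**Figure D1:**
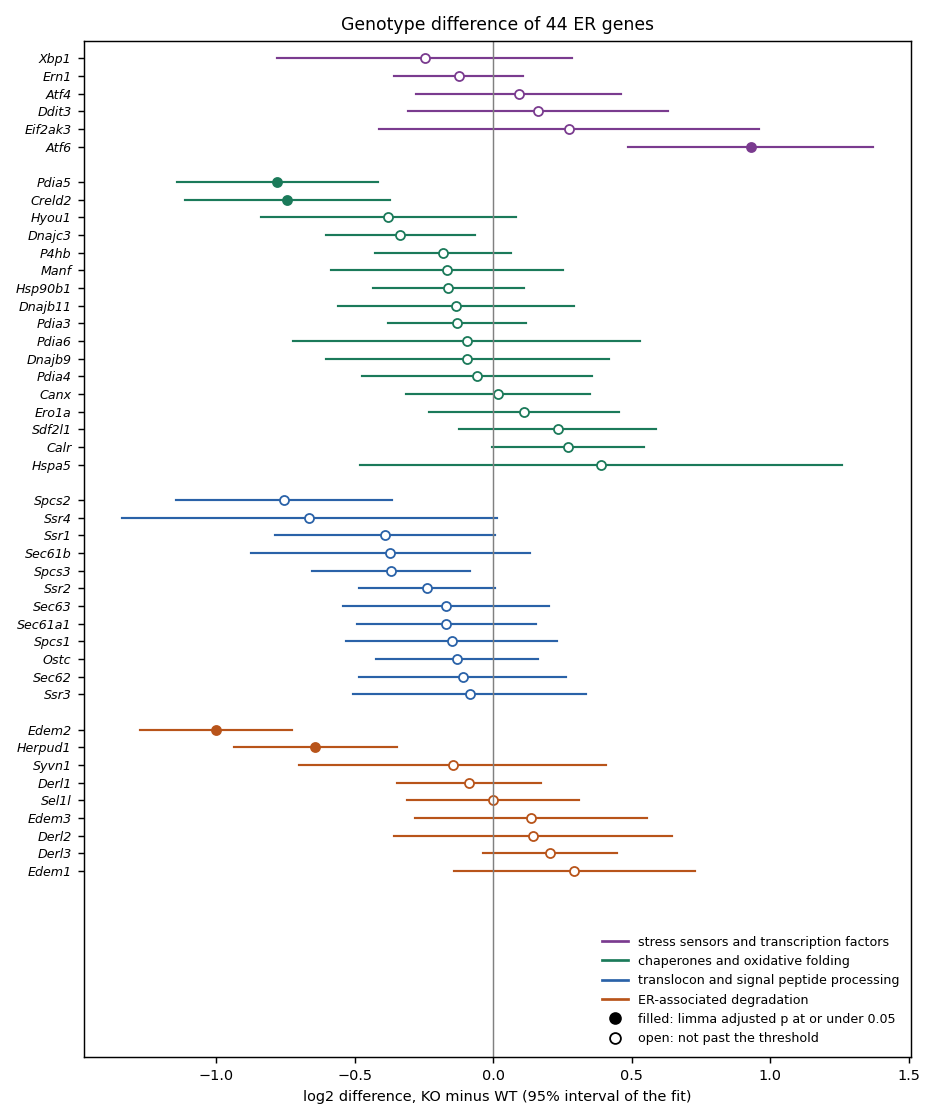
Log2 difference between KO and WT for each of the 44 ER genes, in 4 role groups, with its 95% interval from the limma fit over all genes. Filled points passed an adjusted p of 0.05: Atf6 lies above 0, and Edem2, Pdia5, Creld2 and Herpud1 lie below it. All 12 translocon and signal peptide genes lie below 0 with open points.

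The 5 calls were not equally firm. Edem2 was called in all 6 fits that left out 1 array (highest adjusted p 0.0272). Atf6, Pdia5, Creld2 and Herpud1 each lost the call without any one of WT replicates 1, 2 or 3 or KO replicates 2 or 3, with highest adjusted p of 0.150, 0.106, 0.151 and 0.105. All 5 kept it without KO replicate 1. None was called by an unequal-variance test per gene (adjusted p from 0.167 to 0.457), which called 2 genes higher and 2 lower among all genes.

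Of the members, 14 had their 3 KO values outside the WT range, 3 above it and 11 below, and over all genes this held for 20.4%, with 8.71% above and 11.7% below. Those above were Atf6, Calr and Derl3. Those below were Ern1, P4hb, Pdia5, Creld2, Dnajc3, Ssr1, Ssr2, Spcs2, Spcs3, Edem2 and Herpud1. The names outside the called genes were taken after their values were seen.

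Some promoters of these genes hold a known element of the unfolded protein response. Members were chosen by symbol and not by promoter, but the list holds chaperone and degradation genes, which this response raises. A high share of the element among them is therefore no independent result. The ER stress response element (ERSE) reads CCAAT, any 9 bases and CCACG. NF-Y is known to bind its CCAAT end and ATF6 or XBP1 its CCACG end. The shorter ERSE-II, a related site, reads ATTGG, any 1 base and CCACG. Both were searched on both strands of RefSeq promoters of the build GRCm38.p6, from 250 bases before to 50 bases after each gene's start, where 36 of the 44 members had an entry. An ERSE was found for 9 of the 36 (25%) and in 37 of all 27025 genes with an entry (0.137%). The 9 were Hspa5, Hsp90b1, Pdia6, Calr, Canx, Dnajc3, Creld2, Derl3 and Syvn1. An ERSE-II was found for Herpud1 and Dnajb11, 5.56% of members and 0.0444% of all genes. A match of letters is a description and not a measured binding site.

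The stretches below hold the elements of genes whose values are given in the next paragraphs. Creld2 and Herpud1 fell in KO, and Hspa5, Calr, Hsp90b1 and Syvn1 did not pass the test. Capitals mark the matched element, which reads CGTGG first and ATTGG last where it lies on the reverse strand, and each stretch is written 5′ to 3′ on the gene's own strand, ending before the start site.
Hspa5 (chr2:34772005-34772063, plus strand): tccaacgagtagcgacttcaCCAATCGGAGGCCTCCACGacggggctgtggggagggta
Hsp90b1 (chr10:86705513-86705676, minus strand): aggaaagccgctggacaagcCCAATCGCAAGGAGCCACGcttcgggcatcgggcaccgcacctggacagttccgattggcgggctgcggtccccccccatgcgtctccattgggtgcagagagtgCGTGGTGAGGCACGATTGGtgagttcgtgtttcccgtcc
Calr (chr8:84847055-84847113, minus strand): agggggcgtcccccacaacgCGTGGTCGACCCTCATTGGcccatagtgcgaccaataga
Creld2 (chr15:88819500-88819558, plus strand): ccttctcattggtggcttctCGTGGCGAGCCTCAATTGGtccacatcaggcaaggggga
Syvn1 (chr19:6046512-6046570, plus strand): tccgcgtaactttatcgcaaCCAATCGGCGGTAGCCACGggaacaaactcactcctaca
Herpud1 (chr8:94386357-94386407, plus strand): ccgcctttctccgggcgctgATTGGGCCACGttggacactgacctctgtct

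The printed elements began between 212 bases (Hsp90b1) and 44 bases (Syvn1) before the start site. Hsp90b1 held 2 of them, 1 on each strand, and in Herpud1 the ERSE-II began 52 bases before the start. That of Dnajb11, not printed, lay 8 to 18 bases after the start. Members with and without these elements covered overlapping ranges of differences. The 11 with an ERSE or ERSE-II had a median of -0.14 and a range from -0.74 to 0.39, with 2 called lower, and the 25 with neither had a median of -0.11 and a range from -1.0 to 0.29, with 2 called lower. The 8 members with no entry in the promoter table, Atf6 among them, ran from -0.38 to 0.93. Of other motifs, TGACGTGG (the core of the unfolded protein response element, UPRE) and GAAA, any 2 bases and GAAA (a core of the interferon-stimulated response element, ISRE) were found in 0 of the 36 members and 0.714% and 3.99% of all genes. The E-box CACGTG matched 5 of 36 (13.9%) and 8.09% of all genes. The E-boxes of Calr, Derl3, Dnajb9, Sec62 and Ssr1 lay between 224 and 32 bases before the start, and none overlapped an ERSE.

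**Figure D2:**
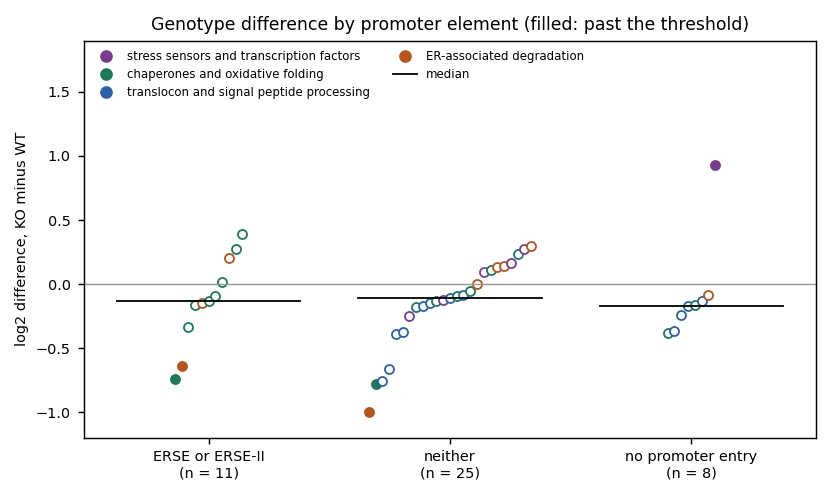
Log2 difference between KO and WT for members whose RefSeq promoter holds an ERSE or ERSE-II (n = 11), holds neither (n = 25) or has no entry in the table (n = 8). Each point is a gene, filled where it passed the threshold, colours give the role, and lines mark medians of -0.14, -0.11 and -0.17.

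Among the stress sensors and transcription factors, Atf6 was 1.9-fold higher in KO, and the other 5 genes passed in neither direction. Atf6 encodes an ER membrane protein that is cut in the Golgi to release a transcription factor for chaperone genes. It measured 9.18, 9.04 and 9.25 in WT replicates 1 to 3 and 9.66, 10.28 and 10.33 in KO replicates 1 to 3, so that each KO array was above each WT array and KO replicate 1 was the lowest of them. The difference was 0.93 (SE 0.19, 95% interval 0.49 to 1.37, limma adjusted p = 0.0375, exact permutation p = 0.10), and 1.15 without KO replicate 1 (adjusted p = 0.00248).

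Eif2ak3 encodes PERK, the kinase that slows translation under ER stress. It measured 8.37, 8.10 and 8.09 in WT and 7.74, 8.65 and 8.99 in KO. The KO arrays lay on both sides of WT, with replicate 1 below and the others above. The difference was 0.27 (SE 0.29, limma adjusted p = 0.750). It was 0.63 without KO replicate 1 (adjusted p = 0.0586) and passed the threshold with both arrays numbered 1 left out (0.72, adjusted p = 0.0433).

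Xbp1, the transcription factor made active by IRE1 splicing, measured 8.87, 8.88 and 9.34 in WT and 8.37, 8.77 and 9.20 in KO. The groups overlapped, and the difference was -0.25 (SE 0.23, 95% interval -0.78 to 0.28, limma adjusted p = 0.695), and -0.04 without KO replicate 1. The level of a probe set does not separate spliced from unspliced Xbp1. Ern1, which encodes IRE1, differed by -0.12 with an SD of 0.04 among the 3 WT arrays and 0.06 among the 3 KO arrays (limma adjusted p = 0.640).

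The targets of the PERK arm passed in neither direction. Atf4, whose translation rises when PERK is active, measured 9.97, 10.30 and 10.29 in WT and 10.01, 10.39 and 10.44 in KO, a difference of 0.09 (95% interval -0.28 to 0.46, limma adjusted p = 0.859). Ddit3, which encodes the pro-apoptotic factor CHOP, measured 8.69, 9.29 and 8.99 in WT and 8.85, 9.45 and 9.15 in KO, a difference of 0.16 (95% interval -0.31 to 0.63, limma adjusted p = 0.784). In both genes the groups overlapped. Without KO replicate 1 the difference was 0.23 for Atf4 and 0.31 for Ddit3 (adjusted p = 0.456 and 0.449).

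Among the chaperones and oxidative folding factors 2 of 17 fell and 0 rose by limma, 11.8%, where over all genes 4.38% were called. Their median difference was -0.13, where over all genes it was -0.04. Pdia5, a protein disulfide isomerase, measured 7.61, 7.39 and 7.35 in WT and 6.38, 6.76 and 6.87 in KO. All KO arrays lay below all WT arrays. The difference was -0.78 (SE 0.16, limma adjusted p = 0.0348, exact permutation p = 0.10), a 1.72-fold lower level. Creld2, a secreted folding factor that ER stress is known to raise, measured 8.54, 8.63 and 8.25 in WT and 7.89, 7.47 and 7.83 in KO. Its groups did not overlap either, and the difference was -0.74 (SE 0.16, limma adjusted p = 0.0450), a 1.67-fold lower level. Creld2 missed the threshold in limma with a robust variance trend (adjusted p = 0.0619) and with adjustment over all probe sets (adjusted p = 0.0509).

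The abundant chaperones passed in neither direction. Hspa5 encodes BiP, the main HSP70 chaperone of the ER and the usual readout of the unfolded protein response. It measured 10.71, 11.35 and 11.26 in WT and 10.60, 11.83 and 12.06 in KO. KO replicate 1 lay below every WT array, KO replicates 2 and 3 lay above every WT array, and WT replicate 1 was the lowest WT array. The difference was 0.39 (SE 0.37, 95% interval -0.48 to 1.26, limma adjusted p = 0.710). It was 0.84 without KO replicate 1 (adjusted p = 0.0580) and 0.64 with both arrays numbered 1 left out (adjusted p = 0.0507).

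Hsp90b1, the ER form of HSP90 that is known to fold Toll-like receptors, measured 11.60, 11.79 and 11.71 in WT and 11.39, 11.62 and 11.61 in KO, a difference of -0.16 (95% interval -0.43 to 0.11, limma adjusted p = 0.594), and -0.09 without KO replicate 1. Calr, which encodes the glycoprotein chaperone calreticulin, measured 10.20, 9.98 and 10.12 in WT and 10.24, 10.39 and 10.47 in KO. Its KO arrays were all above WT, by a difference of 0.27 that did not pass (95% interval -0.003 to 0.54, limma adjusted p = 0.317). Its membrane-bound relative Canx, calnexin, measured 10.65, 10.33 and 10.24 in WT and 10.54, 10.29 and 10.45 in KO, a difference of 0.02 (95% interval -0.31 to 0.35, limma adjusted p = 0.976), and -0.04 without KO replicate 1. The other 11 genes of the group, among them the disulfide isomerases Pdia3, Pdia4, Pdia6 and P4hb and the BiP partners Dnajb9, Dnajb11 and Dnajc3, had differences from -0.38 for Hyou1 to 0.23 for Sdf2l1.

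Genes of the translocon and of signal peptide processing all had a negative difference, 12 of 12 with a median of -0.20. Over all genes 58.2% of differences were negative and the median was -0.04. By limma 0 of the 12 passed in either direction, and the unequal-variance test called 0 too. An unadjusted p under 0.05 was found for 2 of the 12, Spcs2 and Spcs3, and for 3203 of all 19937 genes. The count of negative differences stayed at 12 after quantile normalization and after centring of the arrays. It was 11 with array weights, without WT replicate 2 and without both arrays numbered 1, and 10 without KO replicate 1. KO replicates 1 to 3 shifted by -0.39, -0.30 and -0.16 from the WT mean in the median of the group, and WT replicates 1 to 3 by 0.10, -0.06 and -0.07.

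Spcs2, a subunit of the signal peptidase that cuts off the signal sequence, came closest to the threshold. It measured 9.88, 9.29 and 9.39 in WT and 8.85, 8.77 and 8.67 in KO, with all KO arrays below all WT arrays. The difference was -0.76 (SE 0.17, 95% interval -1.15 to -0.36, limma adjusted p = 0.0514, exact permutation p = 0.10). It passed in 7 of the 16 alternatives, such as quantile normalization, centring of array medians and the fit without KO replicate 1 (adjusted p = 0.0494).

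Ssr4 and Ssr1 encode subunits of the translocon-associated protein complex, which sits beside SEC61. Ssr4 measured 10.79, 10.06 and 10.14 in WT and 10.20, 9.62 and 9.17 in KO, a difference of -0.66 (SE 0.29, limma adjusted p = 0.323). KO replicate 1 lay above WT replicates 2 and 3, so the groups overlapped. With the replicate number as a block, the adjusted p of Ssr4 was 0.0385, and without KO replicate 1 its difference was -0.93 (adjusted p = 0.0684). Ssr1 measured 10.05, 10.16 and 10.17 in WT and 9.36, 9.86 and 9.99 in KO, without overlap, a difference of -0.39 (SE 0.17, limma adjusted p = 0.321), and -0.20 without KO replicate 1 (adjusted p = 0.426).

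Sec61a1, the pore-forming subunit of the channel, measured 9.63, 9.54 and 9.66 in WT and 9.17, 9.58 and 9.56 in KO, and the groups overlapped. Its difference was -0.17 (95% interval -0.49 to 0.15, limma adjusted p = 0.652), and -0.04 without KO replicate 1. For Sec61b, a small subunit of the same channel, 3 probe sets were measured, and they differed by -0.37, -0.24 and -0.43, each without passing over all probe sets (adjusted p = 0.492, 0.891 and 0.353). The other 7 genes of the group, among them Sec62, Sec63 and Ostc, had differences from -0.37 for Spcs3 to -0.08 for Ssr3.

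In ER-associated degradation, 2 of 9 genes fell and 0 rose by limma, 22.2%, where over all genes 4.38% were called. The median was -0.001, where over all genes it was -0.04. The group held the largest fall of the list beside genes that were not called. Edem2, which starts the trimming of mannose that marks misfolded glycoproteins for removal, measured 8.17, 8.10 and 7.91 in WT and 7.03, 6.99 and 7.17 in KO. The gap between the groups was wider than the spread within either. The difference was -1.0 (SE 0.12, 95% interval -1.27 to -0.73, limma adjusted p = 0.00385, exact permutation p = 0.10), a 2.00-fold lower level. Herpud1, a membrane protein of the degradation complex, measured 10.71, 10.47 and 10.49 in WT and 9.75, 9.97 and 10.02 in KO. The groups did not overlap, and the difference was -0.64 (SE 0.13, limma adjusted p = 0.0328), a 1.56-fold lower level.

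The paralogs of Edem2 passed in neither direction. Edem1, which delivers glycoproteins to degradation, measured 8.10, 8.22 and 8.74 in WT and 8.45, 8.72 and 8.77 in KO, a difference of 0.29 (95% interval -0.14 to 0.73, limma adjusted p = 0.529). Its groups overlapped. Edem3 differed by 0.14 (95% interval -0.28 to 0.56, limma adjusted p = 0.801), and 0.31 without KO replicate 1 (adjusted p = 0.310). The difference between paralogs was not tested. The ubiquitin ligase gene Syvn1, its partner Sel1l and the channel genes Derl1, Derl2 and Derl3 had differences from -0.15 for Syvn1 to 0.21 for Derl3, and none passed.

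**Figure D3:**
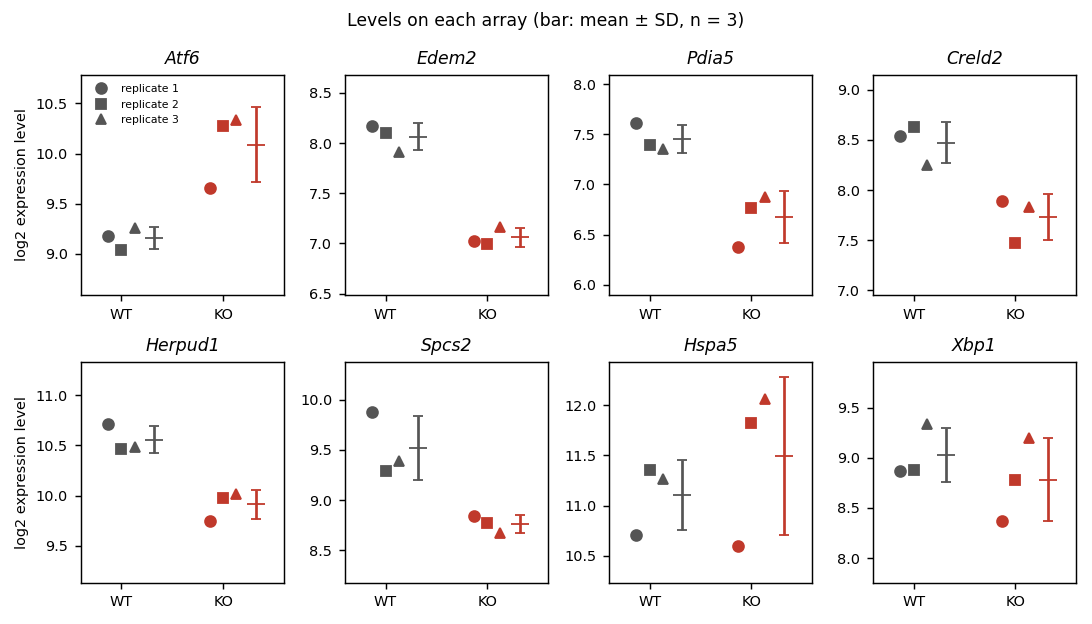
Log2 expression level of 8 ER genes on each array, with marker shapes for the replicate numbers and bars for the mean ± SD (n = 3 per group). Atf6 is higher and Edem2, Pdia5, Creld2, Herpud1 and Spcs2 are lower on every KO array than on any WT array, although Spcs2 missed the threshold (adjusted p = 0.0514), while the Hspa5 and Xbp1 groups overlap.

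The KO arrays did not shift alike. KO replicate 1 lay below the WT mean for 37 of 44 members, KO replicate 2 for 26 and KO replicate 3 for 22, and KO replicate 1 was the lowest KO array for 32 members. The median shift from the WT mean was -0.29, -0.08 and 0.00 in KO replicates 1 to 3, and 0.01, -0.03 and 0.01 in WT replicates 1 to 3. Without KO replicate 1 the median difference of the members was -0.04 in place of -0.13, and 26 in place of 31 were negative. The median SD of a member was 0.16 among WT arrays and 0.23 among KO arrays, while over all genes it was 0.16 and 0.15. The SD was larger in KO for 29 of 44 members.

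The other role groups can be set beside the translocon genes. Stress sensors shifted by -0.19, 0.33 and 0.21 in KO replicates 1 to 3, chaperones by -0.31, -0.11 and 0.04, and degradation genes by -0.21, 0.01 and 0.18. Handling stress genes (immediate early and heat shock genes, 9 of 10 measured) shifted by 0.15, 0.52 and 0.70 on the same arrays, and by 0.07, 0.24 and -0.33 in WT replicates 1 to 3. Their summed linear signal ran from 10298.4 to 13405.6 in WT and from 11092.6 to 15896.4 in KO, and 0 of the 9 passed the test. Their part in the ER results was not tested. Nor was that of the neutrophil signal of KO replicate 1 or of the cell cycle signal, which was higher in all KO arrays.

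**Figure D4:**
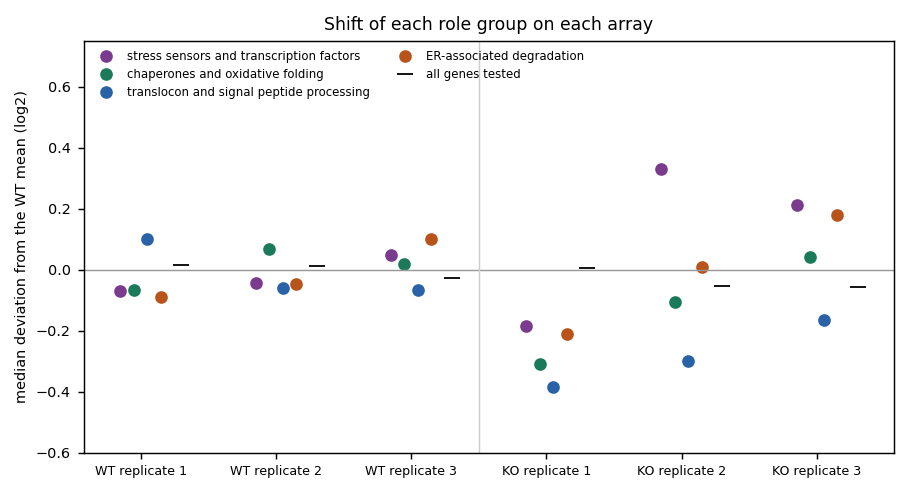
Median deviation from the WT mean, in log2 units, of the 4 role groups on each of the 6 arrays, with dashes for all genes tested. In KO replicate 1 all 4 groups lie below 0, at -0.19 to -0.39, and the translocon group lies below 0 in all 3 KO arrays.

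Plasma cells, which enlarge the ER for antibody secretion, are a cell type whose markers were set beside these values. The sort required SiglecH, a receptor of pDCs, as well as B220. Of 9 markers 3 rose and 0 fell by limma, 33.3%, where over all genes 4.38% were called. Those that rose were Prdm1, which encodes BLIMP1, by 3.49, the syndecan gene Sdc1 by 2.48 and Slamf7 by 1.30. Of the other markers, Mzb1, an ER cochaperone of antibody-secreting cells, differed by -0.97 (adjusted p = 0.0859), Jchain, the joining chain of secreted antibodies, by 0.77 (adjusted p = 0.778), Tnfrsf17, the receptor BCMA, by -0.09 (adjusted p = 0.856) and Ighm by 0.17 (adjusted p = 0.823). Irf4 and Fkbp11 were not called either. Over the 9 markers the median difference was 0.77, with 6 positive and 3 negative. The summed linear signal of the 9 ran from 1147.3 to 1707 in WT and from 2821.7 to 5243.4 in KO, and that of 8 B cell markers from 516.1 to 588 and from 1066.1 to 1121.3. Of the B cell markers 4 of 8 rose (50%, and 2.3% over all genes), and Ms4a1 and Cr2 lay below the 25th percentile of all genes. The part of such cells in the ER results was not tested.

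Other genes of the pathway, 85 measured of 89 in 5 lists, gave 1 gene that rose and 6 that fell by limma. This is 8.24%, where over all genes it was 4.38%, and the median difference of the 85 was -0.15. These lists too were chosen with earlier results of these data known. In a fit of only the genes above the median level, 8.7% of those genes were called, and 2 pathway genes rose and 7 fell. With genes of every level but without KO replicate 1, the pathway counts were 6 higher and 6 lower. Among 18 further folding enzymes and glycan trimming genes 0 rose and 2 fell (11.1%). Txndc5, a disulfide isomerase, fell 2.32-fold, from 8.62, 8.16 and 8.61 in WT to 6.80, 7.56 and 7.39 in KO (limma adjusted p = 0.0244). Man1b1, a mannosidase that acts on misfolded glycoproteins as Edem2 does, fell 1.69-fold (adjusted p = 0.0332).

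Among 21 genes of the signal recognition particle, the oligosaccharyltransferase and other insertion factors, 1 rose and 1 fell. This is 9.52%, where over all genes 4.38% were called. Tram2, a translocation-associated membrane protein, rose 2.71-fold, from 7.67, 7.26 and 7.83 in WT to 8.62, 9.07 and 9.40 in KO (limma adjusted p = 0.0129). Srpr, the receptor of the signal recognition particle, fell 1.51-fold (adjusted p = 0.0312). This list had a median of -0.23, and 17 of 21 differences were negative (81%), where over all genes 58.2% were.

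Among 17 further stress response factors 0 rose and 2 fell, 11.8%, where over all genes 4.38% were called. Both that fell encode ER-anchored transcription factors related to ATF6 in the way they are released. Creb3 fell from 8.47, 8.61 and 8.69 in WT to 7.56, 7.29 and 8.01 in KO, by 0.97 (limma adjusted p = 0.0296), and Creb3l2 fell by 0.68 (adjusted p = 0.0262). Both moved opposite to Atf6. The largest differences of the list were positive and did not pass, and both genes were named after their values were seen. Atf3, a stress-induced transcription factor that also stands in the handling stress list, measured 9.43, 10.85 and 11.01 in WT and 11.17, 12.24 and 12.26 in KO, a difference of 1.46 (limma adjusted p = 0.156). Nfe2l2, which encodes the oxidative stress factor NRF2, measured 9.71, 9.79 and 9.92 in WT and 10.19, 11.45 and 11.41 in KO, a difference of 1.21 (limma adjusted p = 0.0925). In both genes all KO arrays lay above all WT arrays, and each passed in 4 of the 16 alternatives, the fit without KO replicate 1 among them. Among 16 genes of ER exit in COPII vesicles 0 rose and 1 fell (6.25%, and 4.38% over all genes). Sec24d, a cargo-binding coat protein, fell 2.47-fold, from 8.26, 7.38 and 7.96 in WT to 6.51, 6.72 and 6.43 in KO (adjusted p = 0.0168).

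Among 13 further degradation genes 0 passed by limma in either direction. The largest differences belonged to Ube2j1, an ER-anchored ubiquitin-conjugating enzyme, with 0.99 (limma adjusted p = 0.050, which lies just above the threshold before rounding), and Marchf6, an ER ubiquitin ligase, with 0.79 (adjusted p = 0.0919). Of the 7 called genes of these lists, each lost the call without at least 2 single arrays. Tram2 lost it without WT replicate 2 or KO replicate 2 (adjusted p up to 0.0608). Txndc5 lost it without WT replicate 1, WT replicate 3 or KO replicate 3 (up to 0.0997), and Sec24d without WT replicate 3, KO replicate 2 or KO replicate 3 (up to 0.0766). Srpr and Creb3 lost it without any WT array or without KO replicate 2, Man1b1 without WT replicate 1, WT replicate 3, KO replicate 2 or KO replicate 3, and Creb3l2 without any array but KO replicate 1 (in this order, adjusted p up to 0.135, 0.111, 0.129 and 0.0956).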

How the data were processed

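Log2 expression levels in the authors' deposited table (34760 probe sets, 6 arrays) were used as deposited. Their background correction, summarisation and normalization were not given in the sources used here. Log2 was taken as the scale from the range of values. Array medians ran from 5.53 to 5.56, so a shift common to most transcripts would not show. Per the labels' protocols, amplification used NuGen PICO SL. Probe sets with 1 symbol in the platform annotation (21640) were kept, and the brightest by 6-array mean stood for a gene. All 44 members' probe sets share a RefSeq transcript with the gene. Older symbols were matched through RefSeq synonyms. Genotypes were compared with limma 3.58.1 in R 4.3.3 (lmFit, eBayes, no covariates, two-sided, no filter). The test was tested on simulated data. The number of arrays limits the precision.

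The members and lists were chosen with earlier results of these data known. Genes named in full were the called members, the 3 largest differences per role group and 10 fixed members. Of each further list up to 4 called genes, or the 2 largest differences, were named. A planned search of protein ends was not run, as protein sequences were not used here. Figures used matplotlib 3.10.9.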

Additional observations from a re-analysis of the deposited data

How the results depend on the processing

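The alternatives were quantile normalization, centred array medians, bright genes, the mean of probe sets, RefSeq-matched probe sets, a robust variance trend, array weights (statmod 1.5.0), the replicate block, an unequal-variance test and leaving out arrays. None of the 5 called members and 7 called pathway genes changed sign under these 16 alternatives. Among all genes, higher and lower calls (459 and 415) became 716 and 647 with array weights, 707 and 655 with the replicate block, 2 and 2 by the unequal-variance test, and 741 and 641 without both arrays numbered 1. Leaving out single arrays gave 249 to 780 higher and 202 to 719 lower. Members higher (1) became 0 with centred medians and with the unequal-variance test, and 2, Atf6 and Eif2ak3, without both arrays numbered 1. Members lower (4) became 2 with the variance trend, 0 with the unequal-variance test and 2 without both arrays numbered 1. The variance trend ended the calls of Creld2 and Herpud1 (adjusted p = 0.0619 and 0.0528). Leaving out single arrays gave 0 to 1 higher and 1 to 5 lower. Centred medians ended the calls of Atf6, Pdia5 and Herpud1 (adjusted p = 0.0611, 0.0549 and 0.0509). Members above the WT range (3) became 1 with quantile normalization and 9 without both arrays numbered 1, and those below (11) became 19, where 2 against 2 arrays separate more easily. Single arrays gave 3 to 9 and 12 to 15. Pathway genes higher (1) became 2 with quantile normalization, bright genes, the mean of probe sets and RefSeq-matched probe sets, 6 with array weights, 4 with the replicate block, 0 with the unequal-variance test and 6 without both arrays numbered 1. Pathway genes lower (6) became 10 with array weights and 0 with the unequal-variance test. Single arrays gave 0 to 6 in each direction. Beyond the constructions named, the cause was not tested. Same-numbered arrays had correlated deviations over genes of 0.379, 0.097 and 0.252, and different-numbered arrays ran from -0.306 to 0.200. Not all same-numbered values passed 0.1, so the numbers were not taken as pairs. Whether they mark shared handling was not tested. With the replicate block 7 members were called, the 5 of the fit without it plus Spcs2 and Ssr4.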

Other observations

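Chaperones of the cytosol and genes of ER calcium and ER shape were set beside the ER genes after the data were examined. Of 18 measured cytosolic chaperones, such as the HSP70 gene Hspa8 and the subunits of the CCT chaperonin, 0 rose and 0 fell by limma, and the median difference was 0.00. The largest were -0.78 for Bag3, a cochaperone of HSP70 (adjusted p = 0.322), and 0.65 for Cct5, a CCT subunit (adjusted p = 0.0829). Of 16 measured genes of ER calcium and shape, 1 rose and 1 fell (12.5%, and 4.38% over all genes). Retreg1, a receptor for the removal of ER by autophagy, measured 6.64, 6.56 and 6.38 in WT replicates 1 to 3 and 7.28, 7.31 and 7.29 in KO, and rose 1.70-fold (limma adjusted p = 0.00884). Atp2a3, a pump that fills the ER with calcium, measured 7.69, 7.57 and 7.87 in WT and 7.01, 6.82 and 7.21 in KO, and fell 1.62-fold (adjusted p = 0.0362). In both genes the groups did not overlap.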
